A study of Mus musculus with 192 samples.

Results

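The genes described here encode the subunits of the oxidative phosphorylation (OXPHOS) machinery that are made from nuclear DNA. They were chosen by symbol alone, as protein-coding genes named Nduf followed by a, b, c, s or v and a number (complex I), Sdha to Sdhd (complex II), Uqcr (complex III), Cox4 to Cox8 (complex IV) or Atp5 (complex V). The rule found 84 gene identifiers, 36 for complex I, 4 for complex II, 8 for complex III, 18 for complex IV and 18 for complex V. Total RNA lists 83 of them among 45191 identifiers, and the nuclear and cytoplasmic fractions list 65 of them among 39815. The 19 members on chromosomes 7, 8, 9 and X, 9 of complex IV among them, were not analysed in the fractions. A further 8 processed pseudogenes share a member's name stem and were left out, and reads of such near-identical copies could have been divided among them by the authors' counting.

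The OXPHOS machinery sits in the inner mitochondrial membrane. Complex I takes electrons from NADH and complex II from succinate, ubiquinone carries them to complex III, cytochrome c carries them on to complex IV, and complex IV hands them to oxygen. Complexes I, III and IV pump protons as electrons pass, and complex V, the ATP synthase, uses the proton gradient to make ATP. Apart from complex II, each complex also holds subunits encoded by mitochondrial DNA. Pluripotent stem cells are known for a high rate of glycolysis, and their use of respiration differs between pluripotent states and changes as they differentiate.

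The study followed mouse embryonic stem cells (mESCs) of the wild-type E14 line, derived from 129/Ola mice, as they left pluripotency under retinoic acid (RA), which drives them into extraembryonic endoderm-like (XEN) and ectoderm-like (ECT) cells. Cells kept in 2i medium with LIF were moved to N2B27 medium with 0.25 µM all-trans RA, with fresh medium after 48 h, and stranded mRNA libraries were made. Of 192 samples in the series, 64 are used here. Nuclear and cytoplasmic RNA came from 3 differentiation runs (numbered 5, 6 and 7) at 8 times each, giving 24 libraries per fraction, namely before RA (0 h), at 6, 12, 24 and 36 h, and at 48, 72 and 96 h. Total RNA of unsorted cells came from run 1 (all of these times but 12 h) and run 2 (0 and 96 h), read from a single end, and from run 3 (0, 12, 24, 36 and 48 h), read from both ends. In single-end total RNA the number is only the replicate number of the label, which does not say that equal numbers share a differentiation. Cells sorted at 96 h gave 1 library titled XEN and 1 titled ECT. All groups share the line, the genotype and the culture protocol, and they differ in time under RA, fraction or sort gate.

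Depth was 6860451 to 30624948 counts in nuclear libraries (median 12413533), 9119521 to 21652601 in cytoplasmic libraries (median 10829101), 29362017 to 36364330 in single-end and 12653980 to 13692847 in paired-end total RNA. Markers of the starting and of the final cell types moved with time under RA. In cytoplasmic RNA the summed level of 7 naive pluripotency genes was 215.96 to 309 CPM (a count relative to the size of its library) at 96 h, against 5688 to 5825 CPM at 0 h, and that of 12 XEN genes was 28948 to 45681 CPM at 96 h, against 1467 to 1683 CPM at 0 h. Ectoderm genes summed to 937 to 969 CPM at 96 h, against 176 to 199 CPM at 0 h, and fibroblast genes to 206 to 247 CPM at 96 h, against 3.399 to 4.86 CPM at 0 h. In bulk RNA of such a changing mixture, fewer cells of a type and less RNA per cell cannot be told apart, and the part of cell composition in the results on OXPHOS genes was not tested. In total RNA, run 1 gave almost the same values at 36 h as at 48 h (median absolute log2 difference over 81 members 0.03, against 0.16 in run 3), and both are kept under their labels.

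Promoters of OXPHOS genes are known to bind nuclear respiratory factor 1 (NRF1), the ETS factor GABP and YY1. Windows from 250 bases before to 50 bases after the start were matched in RefSeq (GRCm38.p6) for 68 of the 84 members, and were searched on both strands for GCGCA followed by any base and GCGC (NRF1), CCGGAAG (ETS), AAGATGGCG (YY1) and GGGGCGGGG (SP1). The NRF1 letters stood in the windows of 17 members (25%), against 5.14% of 26957 other genes. The ETS letters stood in 16 (23.5%, against 9.89%), the YY1 letters in 7 (10.3%, against 1.62%) and the SP1 letters in 12 (17.6%, against 12.9%). Over all windows of this length the shares were 4.60%, 8.86%, 1.40% and 11.4%, in that order of motifs. A match is a description of the letters, not a site or a cause. The stretches below, each 30 bases on the strand of the gene with the motif in capitals, belong to members whose levels are described further on. For 2 of them the capitals show the ETS letters as they read on the other strand.
Ndufb4, chr16:37654428-37654457, minus strand, NRF1: ccttgtgcgcGCGCAGGCGCacttcctgag
Ndufa11, chr17:56717692-56717721, plus strand, NRF1: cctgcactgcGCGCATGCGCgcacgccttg
Sdha, chr13:74350276-74350305, minus strand, NRF1: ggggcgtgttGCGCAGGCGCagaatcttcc
Cox6a1, chr5:115349101-115349130, minus strand, NRF1: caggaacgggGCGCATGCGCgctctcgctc
Cox6a1, chr5:115348956-115348985, minus strand, ETS: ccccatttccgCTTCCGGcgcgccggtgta
Cox8a, chr19:7217603-7217632, minus strand, ETS: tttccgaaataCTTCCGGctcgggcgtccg
Atp5k, chr5:108434430-108434459, minus strand, NRF1: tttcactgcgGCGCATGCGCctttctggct
Ndufb4 and Ndufa11 both carry the NRF1 letters, and they are the members of complex I with the lowest and the highest change in cytoplasmic RNA.

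Before RA, the OXPHOS genes were among the abundant mRNAs of mESCs. In single-end total RNA at 0 h, the median member stood at 175 TPM (a share of all transcripts after division by length, so that genes can be set side by side), and 61 of 83 members exceeded 100 TPM. The highest levels were those of Atp5b, the catalytic beta subunit of the ATP synthase, at 1876 and 2024 TPM in runs 1 and 2 and 3733 TPM in run 3, and of Atp5a1, its alpha subunit, at 773, 684 and 773 TPM. Atp5g3, one of 3 genes for the membrane ring subunit c, stood at 744, 699 and 921 TPM, Ndufa4, a small subunit counted with complex I by name and found with complex IV in later work, at 625, 732 and 571 TPM, and the common complex IV subunit Cox4i1 at 723, 617 and 1239 TPM. Medians by complex were 126 TPM for I (35.7 to 679), 139 for II (117 to 212), 317 for III (117 to 508), 198 for IV (0.040 to 670) and 428 for V (2.75 to 1950). The 4 members under 1 TPM were Cox4i2, Cox6a2, Cox8b and Cox8c, all tissue isoforms of complex IV.

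Single-end and paired-end libraries gave like levels for most members, with 69 of the 79 members at 1 TPM or more within 2-fold, but 4 members differed more than 4-fold. Atp5g2, another subunit c gene, had 13.8 and 19.7 TPM in runs 1 and 2 and 685 TPM in run 3, and Cox7c, a small subunit of complex IV, had 121 and 165 TPM against 1131 TPM. Atp5e, the epsilon subunit of the ATP synthase, went the other way, with 398 and 205 TPM in runs 1 and 2 and 6.41 TPM in run 3, and Atp5s, an ATP synthase coupling factor, had 3.23 and 2.26 TPM against 14.5 TPM. The paired-end cytoplasmic libraries at 0 h lay near run 3 for Cox7c (760 to 1099 TPM), Atp5g2 (502 to 603 TPM) and Atp5e (3.17 to 7.71 TPM). Levels of these 4 genes were therefore compared only within 1 kind of library.

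After 96 h of RA, cytoplasmic RNA held less mRNA for most of the OXPHOS machinery than before RA. Of 62 members tested (Cox4i2, Cox8c and a second identifier of Atp5o were under the filter of a mean count above 10), 38 fell and 0 rose at an adjusted p under 0.05 in edgeR, where 34.4% of all 11675 genes fell and 33.3% rose. The median log2 fold change of members was -0.60, against -0.02 over all genes tested, and 59 members lay below 0. The 3 libraries at 96 h lay below all 3 at 0 h for 37 members, which 35.6% of all genes did. Members that fell made up 17 of 30 in complex I, 2 of 3 in complex II, 4 of 6 in complex III, 6 of 7 in complex IV and 9 of 16 in complex V. Their joint share of all counts was 0.667% to 0.710% at 96 h and 0.877% to 1.07% at 0 h, so that the groups did not overlap. Replicates are separate differentiation runs, and p-values measure the spread between them. Without the 0 h library of run 5, which held the highest levels of many members, 26 members fell.

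**Figure D1:**
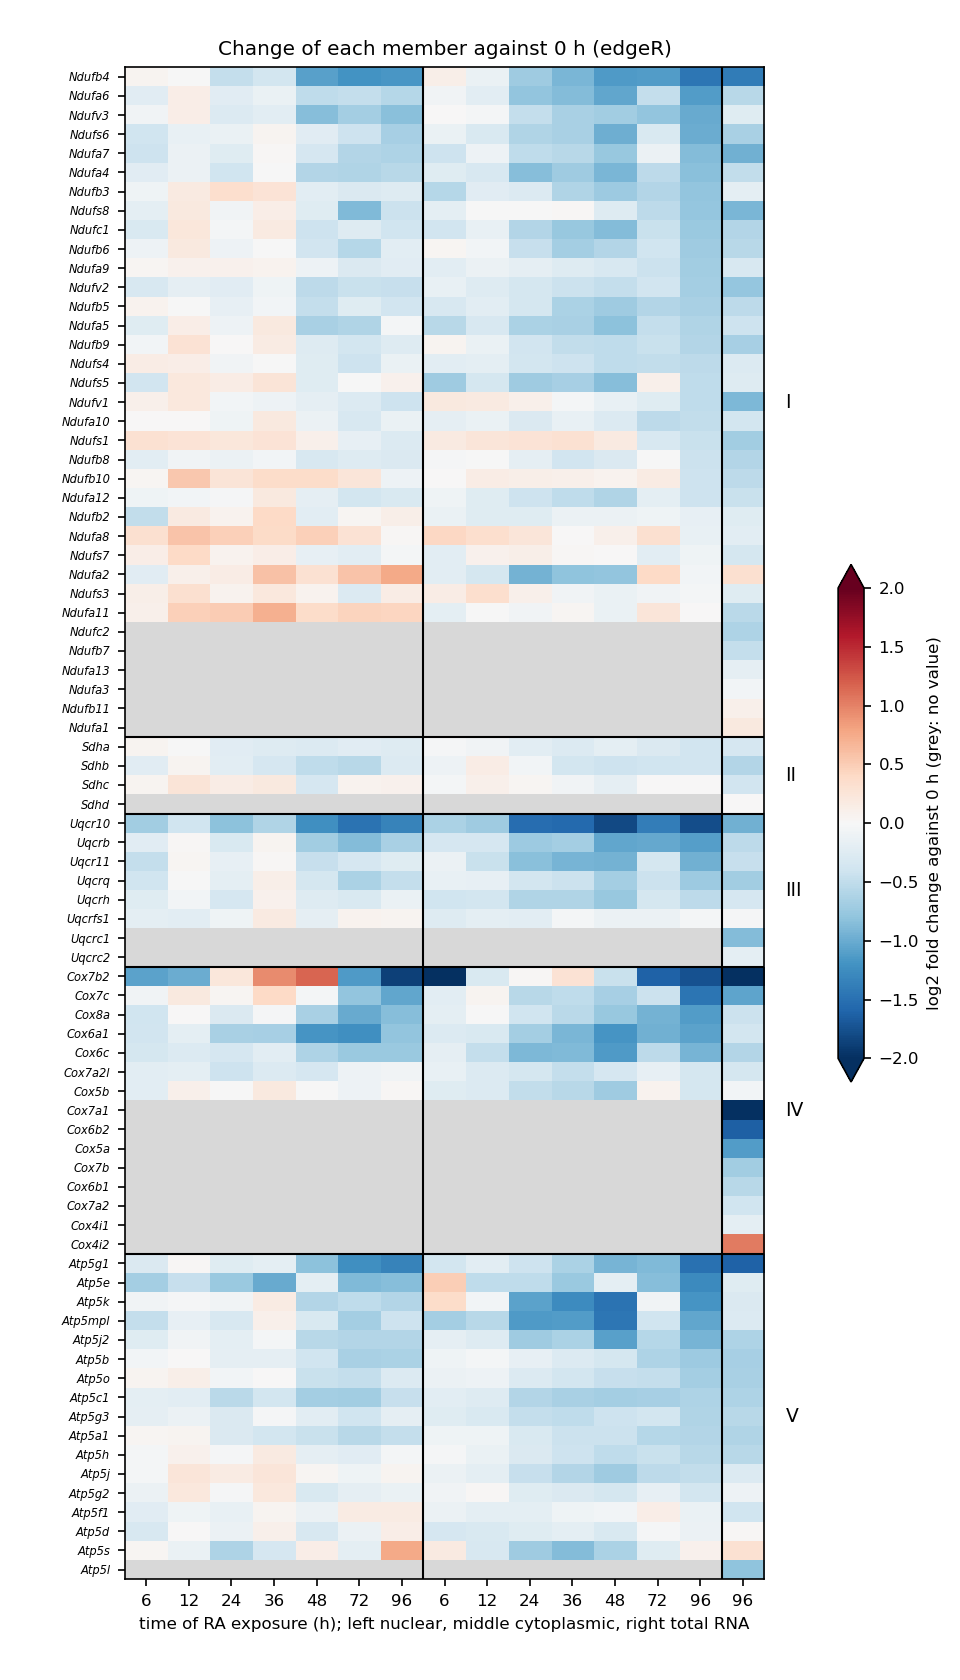
Log2 fold change against 0 h of the members (lines, 1 member not drawn, grouped by complex I to V and sorted by cytoplasmic RNA at 96 h) at each later time in nuclear RNA (left), cytoplasmic RNA (middle) and total RNA at 96 h (right), blue for lower and red for higher, grey where no value was computed, on a scale of -2 to 2. Cytoplasmic RNA turned blue over most members from 24 h on, with 38 of 62 past the test at 96 h, where 34.4% of all genes fell. Nuclear RNA was paler, with 15 of 62, where 27.8% of all genes fell. No member passed the direct test of the difference between fractions.

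Complex I, the NADH dehydrogenase, has a core of catalytic subunits and a larger number of accessory ones, and both kinds fell. Ndufb4, an accessory subunit of the membrane arm (chromosome 16, 37647170 to 37654453), had the lowest change, with 9.24, 7.63 and 6.99 CPM in runs 5, 6 and 7 at 96 h, against 26.1, 21.2 and 15.9 CPM at 0 h. All 3 values at 96 h were below all 3 at 0 h, and the log2 fold change was -1.45 (standard error 0.24, adjusted p = 1.69e-05 in edgeR). Ndufs1, the largest core subunit, which carries iron-sulfur clusters, had 152.3, 163 and 165 CPM at 96 h, against 205, 213 and 215.7 CPM at 0 h (log2 fold change -0.45, adjusted p = 1.67e-05), a smaller change with little spread between runs. The flavoprotein genes at the NADH entry site fell as well, Ndufv1 by 0.50, Ndufv2 by 0.68 and Ndufv3 by 1.00 on the log2 scale, as did the core subunit gene Ndufs8, by 0.77. The core subunit genes Ndufs3 and Ndufs7 did not pass the test (-0.05, adjusted p = 0.728, and -0.08, adjusted p = 0.652). Ndufa11, an accessory subunit at the contact with complex III, had the highest change, with 56.3, 50.5 and 43.2 CPM at 96 h, against 59.1, 48.8 and 37.0 CPM at 0 h, groups that overlapped (0.01, standard error 0.24, adjusted p = 0.984).

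Complex II, succinate dehydrogenase, which is also an enzyme of the citric acid cycle, had the median closest to 0, -0.38. Sdha, its flavoprotein, had 276, 297 and 305 CPM at 96 h, against 359, 378 and 374 CPM at 0 h, without overlap (log2 fold change -0.39, standard error 0.06, adjusted p = 2.45e-06 in edgeR). Sdhb, the iron-sulfur subunit, fell by 0.38 (adjusted p = 0.00226) and kept the call in 11 of 13 alternatives. With the length offset described further on, Sdhb was at -0.19 (adjusted p = 0.0902). Sdhc, a membrane anchor, had 95.5, 95.4 and 96.4 CPM at 96 h, against 96.3, 93.4 and 86.3 CPM at 0 h, levels that overlapped (0.01, adjusted p = 0.931).

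In complex III, the cytochrome bc1 complex, 4 small supernumerary subunits fell, and the core subunits Uqcrc1 and Uqcrc2 were not analysed in the fractions. Uqcr10, one of the smallest, had 27.4, 28.1 and 23.4 CPM at 96 h, against 145, 64.9 and 53.1 CPM at 0 h. The groups did not overlap, but run 5 at 0 h stood at more than 2-fold either other run, and the log2 fold change was -1.78 with a standard error of 0.42 (adjusted p = 0.000819 in edgeR). Uqcrb, which helps bind ubiquinone, had 42.6, 36.0 and 33.2 CPM at 96 h, against 107, 76.7 and 49.4 CPM at 0 h, again with the highest level in run 5 (-1.10, adjusted p = 0.000779). Uqcrq (-0.73, adjusted p = 0.0252) and the hinge protein gene Uqcrh (-0.52, adjusted p = 0.0339) also fell, but kept the call in 9 and 5 of 13 alternatives. With the length offset described further on, Uqcrq was at -0.21 (adjusted p = 0.0511) and Uqcrh turned to 0.05 (adjusted p = 0.644). Uqcr11, another small subunit, did not pass (-0.96, adjusted p = 0.0786). Uqcrfs1, the Rieske iron-sulfur protein and a catalytic subunit, had 130, 117 and 120 CPM at 96 h, against 127, 124 and 114 CPM at 0 h, which overlapped (-0.04, adjusted p = 0.717, and 0.01 with DESeq2).

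Complex IV, cytochrome c oxidase, had the lowest median of the complexes, -1.08, over the 7 members tested in the fractions. Cox6a1, the common isoform of subunit VIa, had 92.9, 83.7 and 82.4 CPM at 96 h, against 213, 171 and 144 CPM at 0 h (log2 fold change -1.08, standard error 0.20, adjusted p = 5.15e-05 in edgeR). Cox7c had 64.5, 55.7 and 53.3 CPM at 96 h, against 242, 124 and 94.4 CPM at 0 h (-1.46, standard error 0.40, adjusted p = 0.00263). Cox8a, the common isoform of subunit VIII, had 71.2, 63.5 and 55.6 CPM at 96 h, against 189, 112 and 99.3 CPM at 0 h (-1.12, standard error 0.25, adjusted p = 0.000361). None of these 3 genes overlapped between times, and in each of them run 5 was highest at both times. Cox7a2l, which joins complexes III and IV into supercomplexes, fell by 0.36 (adjusted p = 0.00153) and Cox6c by 0.93 (adjusted p = 0.0179). With the length offset, Cox7a2l was at -0.15 and did not pass (adjusted p = 0.131). Cox7b2, an isoform known from testis, had the lowest change but rested on few counts, with 0.305, 0.431 and 0.645 CPM at 96 h, against 1.65, 1.33 and 1.43 CPM at 0 h (-1.74, standard error 0.65, adjusted p = 0.0225). Its adjusted p was 0.0503 without the 0 h library of run 5, 0.0837 and 0.0647 without the 96 h libraries of run 5 and of run 6, and 0.113 with the length offset described further on. Cox5b, a zinc-binding subunit with the highest change of the complex, had 88.0, 75.4 and 64.5 CPM at 96 h, against 143, 78.9 and 61.2 CPM at 0 h, with overlap (-0.36, adjusted p = 0.393).

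In complex V, the alpha, beta and gamma subunits of the catalytic head fell. Atp5b (chromosome 10) had 1651, 1698 and 1745 CPM at 96 h, against 2746, 2758 and 2666 CPM at 0 h, with little spread at either time (the change was -0.73 on the log2 scale, with a standard error of 0.05, and adjusted p = 3.33e-11 in edgeR). Atp5a1 had 1039, 1041 and 1088 CPM at 96 h, against 1498, 1556 and 1543 CPM at 0 h (-0.59, standard error 0.06, adjusted p = 7.53e-09). Atp5c1, the gamma subunit of the central stalk, fell by 0.62, and Atp5o, the stalk subunit known for conferring oligomycin sensitivity, by 0.67 on the log2 scale. Of the 3 genes for the same subunit c, Atp5g1 fell most, with 56.7, 52.8 and 57.1 CPM at 96 h, against 186, 145 and 121 CPM at 0 h (-1.49, standard error 0.21, adjusted p = 2.15e-06). Atp5g3 had 195, 196 and 188 CPM at 96 h, against 354, 256 and 240 CPM at 0 h (-0.61, adjusted p = 0.00221). Atp5g2 had 142, 145 and 150 CPM at 96 h, against 234, 165 and 145 CPM at 0 h, where run 7 at 0 h lay inside the range of 96 h (-0.37, adjusted p = 0.0487). It kept the call in 4 of 13 alternatives and turned to 0.03 with the length offset (adjusted p = 0.718). Atp5f1, subunit b of the peripheral stalk, did not pass the test (-0.14, adjusted p = 0.111), nor did the genes of the other head subunits, Atp5d (delta, -0.11, adjusted p = 0.454) and Atp5e (epsilon, -1.28, adjusted p = 0.0570), and of the small subunit Atp5k (-1.18, adjusted p = 0.178). Atp5s, with the highest change of the complex, had 4.20, 4.92 and 4.51 CPM at 96 h, against 4.59, 3.98 and 3.82 CPM at 0 h, with overlap (0.09, adjusted p = 0.749).

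**Figure D2:**
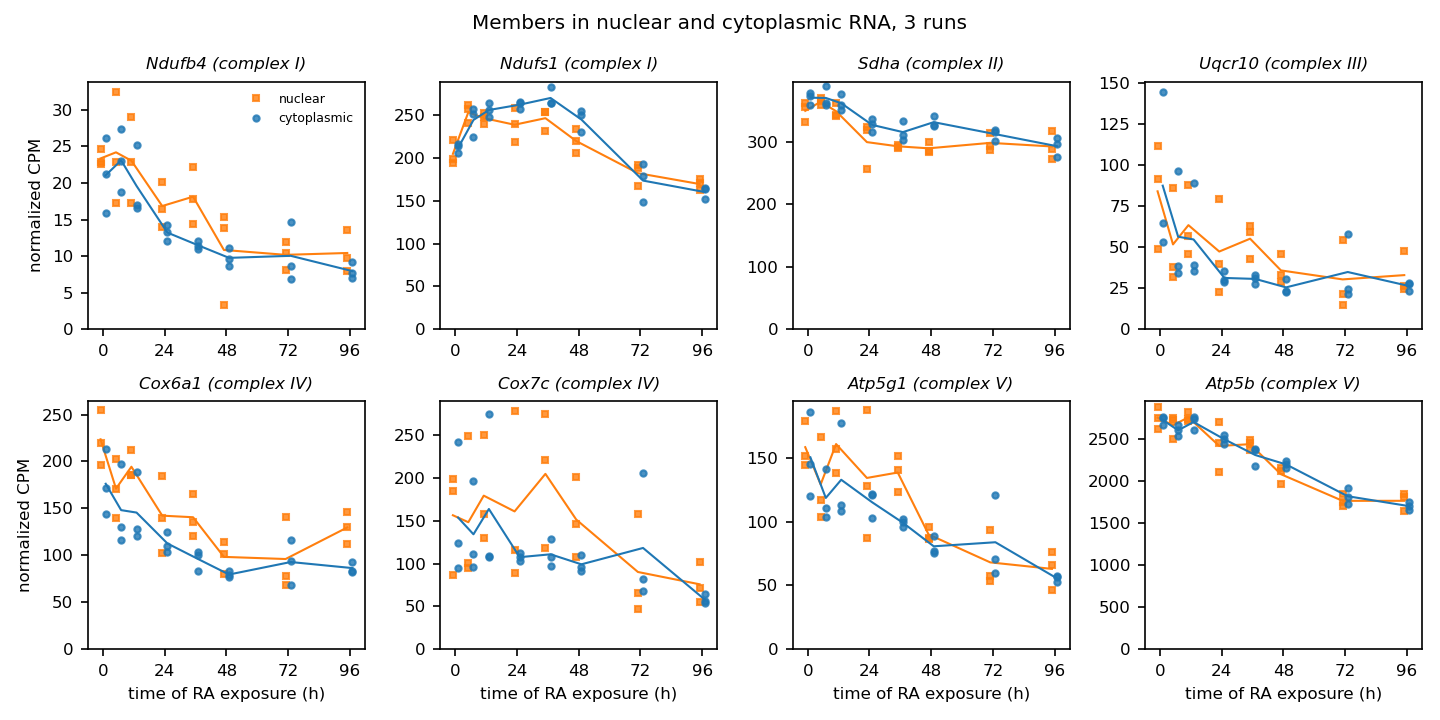
CPM of 8 members in each library against hours of RA (0 to 96 h), nuclear RNA as orange squares and cytoplasmic RNA as blue circles, 3 runs per time, with a line through the mean and axes that start at 0. Atp5b stepped down in both fractions, Ndufs1 peaked in the middle of the course, and the small subunits Uqcr10 and Cox7c scattered most between runs at 0 h.

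Few members had passed the test by 12 h, although their median was already below 0. In cytoplasmic RNA 2 members fell at 6 h, 3 at 12 h, 20 at 24 h, 24 at 36 h, 34 at 48 h and 26 at 72 h, while 0, 2, 1, 1, 0 and 0 rose. The share of all genes that fell in the same fits was 17.1%, 17.5%, 22.6%, 26.2%, 28.6% and 32.9%, and the share that rose was 16.2%, 16.8%, 21.2%, 24.4%, 28.4% and 32.5%. The members' median log2 fold change was -0.16, -0.20, -0.38, -0.51, -0.55 and -0.41 at these times, which share the 0 h libraries. Of the members that fell at any time, the first call came at 24 h for 17, at 36 h for 7 and at 48 h for 8. The lowest point was 96 h for 32 of 62 members and 48 h for 19. A test for any change over the course called 33 of 62, against 85.1% of all genes, and without run 6 it called 20. Without run 6, the 6 comparisons before 96 h held 44 calls in place of 113.

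Atp5b stepped down from 24 h on, at 2493, 2546 and 2439 CPM at 24 h, 2203, 2231 and 2149 CPM at 48 h and 1809, 1729 and 1911 CPM at 72 h (log2 fold changes -0.16, -0.35 and -0.62). Uqcr10 was already low at 24 h, with 35.4, 28.6 and 29.9 CPM (-1.52, adjusted p = 0.00529 in edgeR), and stayed in that range apart from run 5 at 72 h, with 58.4 CPM. Ndufs1 was higher before it was lower. It had 205, 213 and 215.7 CPM at 0 h, 263, 263 and 282 CPM at 36 h and 152.3, 163 and 165 CPM at 96 h in cytoplasmic RNA, with a rise at 12 h (0.25, adjusted p = 0.0135), 24 h (0.27, adjusted p = 0.00505) and 36 h (0.31, adjusted p = 0.00147) before it fell. In nuclear RNA Ndufs1 rose at 6, 12 and 36 h too. The other members that rose at some time, Ndufs3, Ndufa8, Ndufb10 and Ndufa11, were also subunits of complex I. Ndufa8, which folds in the intermembrane space, had 81.6, 67.9 and 68.5 CPM in nuclear RNA at 12 h, against 48.4, 54.0 and 44.6 CPM at 0 h (0.57, adjusted p = 0.00557), and Ndufb10, of the membrane arm, had 74.3, 81.2 and 65.2 CPM, against 49.95, 50.4 and 51.3 CPM (0.54, adjusted p = 0.00446).

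In nuclear RNA at 96 h the median of members was also below that of all genes. In the fit without a block, members did not fall more often than all genes did. In it 15 of 62 members fell and 0 rose, where 27.8% of 11934 genes fell and 27.7% rose, with a median of -0.27, against -0.02 over all genes. On the TPM scale the members' median was -0.03, with 33 of 62 below 0, against 0.14 over all genes. With the run as a block, 25 members fell and 1 rose. The share of all genes under the block is not given here, so these counts cannot be set beside it. All 15 members that fell without the block were among the 38 that fell in cytoplasmic RNA (100% of the calls in nuclear RNA and 39.5% of those in cytoplasmic RNA). Among them were Ndufb4, Ndufs1, Ndufv1, Ndufv2 and Ndufv3 of complex I, Sdha of II, Uqcr10 of III, Cox6a1, Cox6c and Cox8a of IV, and Atp5a1, Atp5b, Atp5c1 and Atp5g1 of V. Atp5g1 had 66.4, 46.2 and 76.4 CPM at 96 h, against 151.5, 145 and 179 CPM at 0 h, without overlap (log2 fold change -1.33, standard error 0.24, adjusted p = 4.67e-05 in edgeR). Atp5b had 1636, 1841 and 1809 CPM at 96 h, against 2882, 2751 and 2617 CPM at 0 h, also without overlap (-0.64, standard error 0.09, adjusted p = 1.08e-06). Ndufb4 had 8.01, 9.76 and 13.52 CPM at 96 h, against 22.9, 22.6 and 24.6 CPM at 0 h (-1.16, adjusted p = 0.00727). At 6, 12, 24, 36, 48 and 72 h, 0, 0, 4, 4, 13 and 18 members fell and 1, 3, 1, 4, 2 and 0 rose, where 9.61%, 12.4%, 14.4%, 19.4%, 21.3% and 25.7% of all genes fell and 10.7%, 11.5%, 15.1%, 19.5%, 23.6% and 27.5% rose. There were 18 such calls without run 5 and 22 without run 6, in place of 50. Without the 0 h or the 96 h library of run 5, 10 members were called at 96 h.

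The log2 fold change was lower in cytoplasmic than in nuclear RNA for 61 of 62 members in these separate fits. Tested directly, the nuclear change minus the cytoplasmic change passed for 0 of 62 members and for 0.0% of 11817 genes in edgeR, and for 0 members in DESeq2. At an unadjusted p under 0.05 it counted 3 members and 814 genes. The 3 were Ndufa9 (0.42), Ndufa10 (0.30) and Atp5o (0.36), with adjusted p of 0.637, 0.637 and 0.683 in edgeR. The median difference was 0.24 for the members and -0.04 for all genes, so a difference between the fractions was not detectable for any single member.

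Averaged over the 8 times, 11 of 62 members were higher and 4 lower in nuclear than in cytoplasmic RNA, where 13.9% and 17.2% of all genes were. CPM are relative to each library's total, so they give a gene's standing within its fraction and not molecules per cell. The study raises the possibility that its separation was incomplete and left much cytoplasmic RNA among the nuclear RNA. This limit holds for all nuclear values here and for the test of the difference between fractions, and its part was not tested. The members' median was 0.14, against -0.01. The lowest were Sdhc, with 57.4 to 107 CPM in nuclear RNA (median 81.9) and 80.5 to 107 CPM in cytoplasmic RNA (median 95.4), and Uqcrfs1, with 73.4 to 122 CPM (median 101) and 92.5 to 133 CPM (median 115). Both ranges overlapped and both genes passed the test (-0.20, adjusted p = 0.00127, and -0.18, adjusted p = 0.00146 in edgeR). Uqcrb was next and did not pass, with 21.7 to 79.7 CPM in nuclear and 33.2 to 107 CPM in cytoplasmic RNA (-0.17, adjusted p = 0.323), but it was lower by 0.50 without the nuclear libraries of run 7 (adjusted p = 0.000480). At the other end stood Atp5e, with 0.525 to 5.38 CPM in nuclear RNA (median 3.02) and 0.591 to 6.29 CPM in cytoplasmic RNA (median 1.46; log2 difference 0.73, standard error 0.22, adjusted p = 0.0108). This call was lost without either fraction of run 7 (adjusted p = 0.0602 and 0.0858). Atp5k, another small subunit, had 4.07 to 31.4 CPM (median 12.3) in nuclear and 5.54 to 49.1 CPM (median 7.34) in cytoplasmic RNA and did not pass (0.47, adjusted p = 0.173). Its difference was 1.13 without the cytoplasmic libraries of run 5 (adjusted p = 0.000324) and -0.03 without the nuclear libraries of run 7. Atp5s had 1.65 to 9.03 CPM (median 4.46) in nuclear and 2.00 to 6.03 CPM (median 3.27) in cytoplasmic RNA (0.43, adjusted p = 0.00354). Other members higher in nuclear RNA were Cox6a1 (0.35, adjusted p = 0.000556), Ndufb8 (0.30, adjusted p = 0.000204), Ndufs3 (0.21, adjusted p = 0.000749) and Ndufv1 (0.18, adjusted p = 0.000634).

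These differences between fractions varied with the run. The fit counted the 8 times of a run as independent libraries and did not pair the fractions of a run. Its p-values therefore do not measure how far the difference varied between runs. The median member's nuclear over cytoplasmic log2 ratio was -0.63 to 0.13 over the 8 times in run 5, -0.23 to 0.56 in run 6 and 0.29 to 0.64 in run 7. Without the cytoplasmic libraries of run 5, 34 members were higher in nuclear RNA and 3 lower. Without the nuclear libraries of run 5 it was 21 and 3, and without those of run 7 it was 7 and 13. The shares of all genes in these refits are not given here. The counts therefore show how far the result moved with the run, and not a lean particular to the members.

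OXPHOS mRNAs are short, and the libraries differed in how much short mRNA they held. The median effective length was 359 bases for the 62 members in cytoplasmic RNA and 2098 bases for the other genes, and 56 members lay below the others' lower quartile of 1217 bases. A balance of each library, the median deviation from the mean over libraries of short genes minus that of long genes, was -0.26, -0.29 and -0.28 in cytoplasmic RNA at 96 h (runs 5, 6 and 7), against 0.32, 0.15 and -0.00 at 0 h. The members' median deviation was -0.19, -0.22 and -0.29 at 96 h, against 0.58, 0.23 and 0.00 at 0 h, so both measures stood in the same order of runs at 0 h. In nuclear RNA the balance was -0.21, -0.10 and 0.04 at 96 h, against 0.07, 0.06 and 0.19 at 0 h. In total RNA it was 0.02 and -0.66 in runs 1 and 2 at 96 h, against 0.62 and 0.02 at 0 h.

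**Figure D3:**
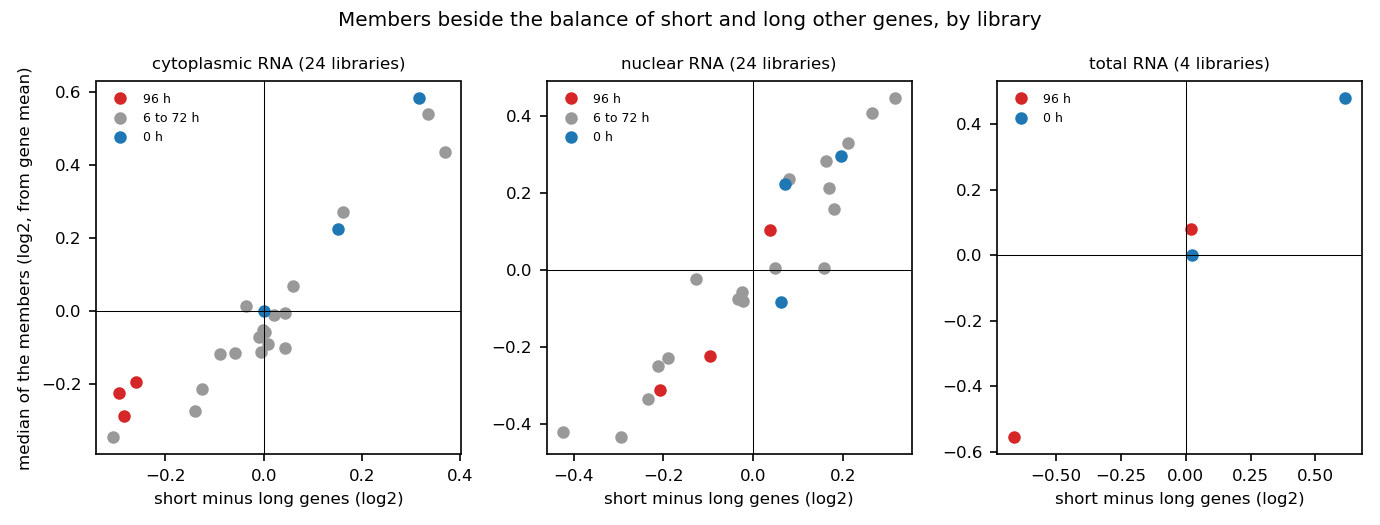
Each library's balance of short against long genes (x axis, log2) and the median deviation of the members (y axis, log2) in cytoplasmic, nuclear and total RNA, with 96 h in red and 0 h in blue. In cytoplasmic RNA the 96 h libraries cluster at balances of -0.26 to -0.29 and the 0 h libraries spread from -0.00 to 0.32, and members are higher where short genes are.

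With a smooth offset on length in each library, 29 members fell in cytoplasmic RNA, 2 rose (Ndufb2, 0.42, adjusted p = 0.00528, and Atp5d, 0.16, adjusted p = 0.0391 in edgeR) and the median was -0.24. The share of all genes that fell or rose under the offset is not given here, so these counts cannot be set beside it. Such an offset also takes out any change that short genes share, so the part of library preparation in the fall was not tested. Of the 38 members that fell, 24 kept the call in every alternative run, the length offset and each library left out included. Among these were Ndufa9, Ndufa10, Ndufb4, Ndufb5, Ndufb9, Ndufs1, Ndufs4, Ndufs8, Ndufv1, Ndufv2 and Ndufv3, Sdha, Uqcr10 and Uqcrb, Cox6a1, Cox7c and Cox8a, and Atp5a1, Atp5b, Atp5c1, Atp5g1, Atp5g3 and Atp5o. The long mRNAs Atp5a1 (-0.58), Sdha (-0.41) and Ndufs1 (-0.45) kept nearly the same change under the offset, and Uqcr10 (-0.93) and Cox7c (-0.82) kept a smaller one. The offset moves genes by their length, so values of long mRNAs do not speak for short members. Under the offset alone 29 of the 38 kept the call. Atp5h (-0.07, adjusted p = 0.562 in edgeR) and Ndufa7 (-0.23, adjusted p = 0.0869) were among those that lost it. On the TPM scale, on which all genes had a median of 0.29, the members' median was -0.16, which is 0.45 below all genes. Within single runs the median of members was -0.77, -0.54 and -0.32 in runs 5, 6 and 7, with 61, 56 and 48 of 62 members below 0.

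Total RNA, which lists the genes on every chromosome here, gave the same direction with less precision, from 2 libraries at 96 h and 2 at 0 h. Of 80 members tested (Cox6a2, Cox8b and Cox8c were under the filter), 5 fell and 0 rose, where 13.3% of 15777 genes fell and 16.4% rose. The median was -0.48, against -0.01 over all genes, 73 members lay below 0, and 30 were lower at 96 h without overlap, which 34.2% of all genes were. Without the 0 h or the 96 h library of run 1, 2 fell, and without the 96 h library of run 2, 1 fell. With the offset on length 6 fell, 2 rose and the median was -0.04, and the share of all genes under the offset is not given here. On the TPM scale the members' median was -0.09, with 50 of 80 below 0, against 0.31 over all genes. The 17 members tested that the fractions do not list had a median of -0.47, and the 63 others one of -0.49.

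Of the 5 members that fell, 4 belong to complex IV, and 3 of these are tissue isoforms at a low level. Cox7a1, the isoform of subunit VIIa known from heart and muscle, had 1.94 and 1.11 CPM in runs 1 and 2 at 96 h, against 22.6 and 10.1 CPM at 0 h (log2 fold change -3.43, standard error 0.58, adjusted p = 0.0109 in edgeR). It was the only member that kept its call in every alternative. In run 1 Cox7a1 stood at 22.6, 13.2, 11.02, 8.87, 9.62, 1.54 and 1.94 CPM at 0, 6, 24, 36, 48, 72 and 96 h, and in run 3 at 5.22, 4.99, 4.33, 3.33 and 2.28 CPM at 0, 12, 24, 36 and 48 h. The step in run 1 thus lay between 48 h and 72 h. Its common partners Cox7a2 (120 and 77.4 CPM at 96 h, against 148 and 110 CPM at 0 h; -0.40, adjusted p = 0.376) and Cox7a2l (196 and 110 CPM, against 268 and 119 CPM; -0.35, adjusted p = 0.613) did not pass.

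Cox7b2 had 0.612 and 0.637 CPM at 96 h, against 10.1 and 2.03 CPM at 0 h (-3.28, standard error 0.87, adjusted p = 0.0382 in edgeR), and the common Cox7b had 171 and 100 CPM, against 262 and 174 CPM (-0.69, adjusted p = 0.200). Cox6b2, the isoform of subunit VIb known from testis, had 13.7 and 8.03 CPM at 96 h, against 44.2 and 22.6 CPM at 0 h (-1.63, standard error 0.45, adjusted p = 0.0444), and its common partner Cox6b1 had 226 and 132 CPM, against 308 and 218 CPM (-0.56, adjusted p = 0.276). The difference within a pair was not tested. The calls of Cox7b2 and Cox6b2 held without the 0 h library of run 2 (adjusted p = 0.00182 and 0.00847) and in no other set of 3 libraries. Without the 0 h library of run 1 the change was -1.69 for Cox7b2 (adjusted p = 0.151) and -1.06 for Cox6b2 (adjusted p = 0.130), and neither passed without either 96 h library. Cox5a, which has no isoform partner, had 193.3 and 122 CPM at 96 h, against 362 and 320 CPM at 0 h (-1.12, standard error 0.31, adjusted p = 0.0422), and kept its call in 7 of 11 alternatives.

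**Figure D4:**
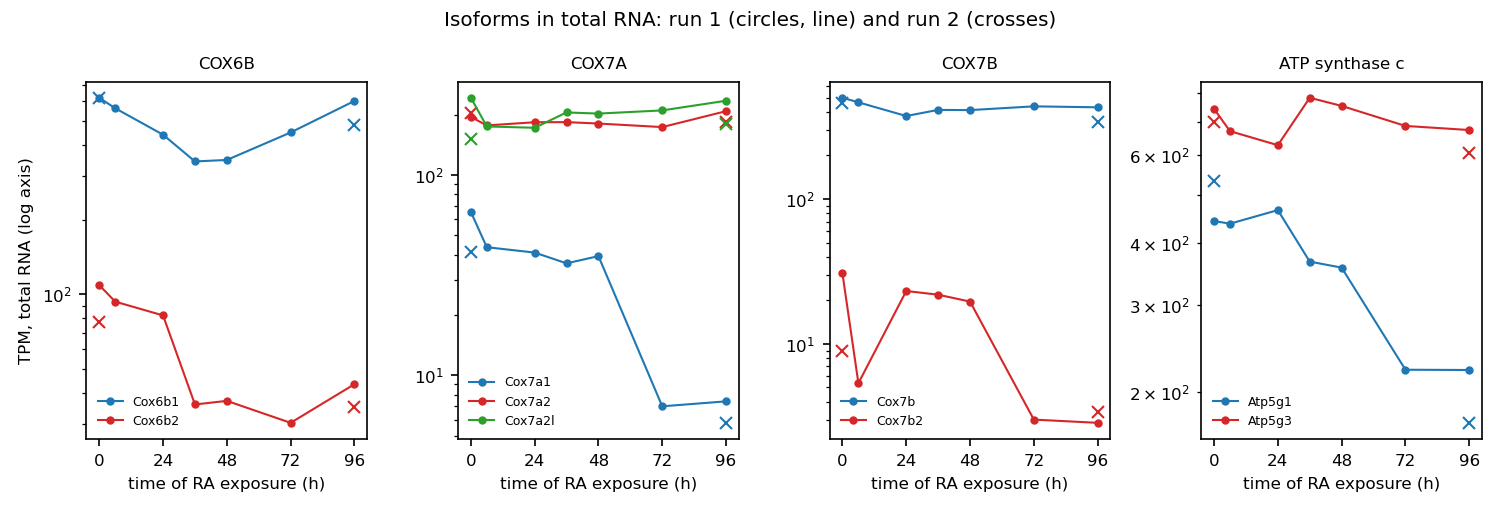
TPM on a log axis against hours of RA in single-end total RNA for isoform sets of complexes IV and V (Cox6b1 and Cox6b2; Cox7a1, Cox7a2 and Cox7a2l; Cox7b and Cox7b2; Atp5g1 and Atp5g3), with run 1 as a line and run 2 (0 and 96 h) as crosses. Cox7a1, Cox7b2 and Cox6b2 lie far below their partners and lower at 96 h than at 0 h in both runs, and Atp5g1 is also lower at 96 h in both.

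The other isoform sets did not pass the test. Cox4i1 had 449 and 234 CPM at 96 h, against 475 and 300 CPM at 0 h (-0.19, adjusted p = 0.755 in edgeR). Cox4i2, the isoform known from lung and from low oxygen, had the highest change of all members at a level under 1 CPM, with 0.374 and 0.498 CPM at 96 h, against 0.177 and 0.241 CPM at 0 h (1.05, standard error 0.71, adjusted p = 0.308), and 1.32 CPM in run 1 at 36 h. It was the only member higher at 96 h without overlap, which 35.1% of all genes were. Ndufa2, an accessory subunit of complex I, was second (67.5 and 35.4 CPM, against 48.5 and 33.1 CPM; 0.33, adjusted p = 0.557), and it rose by 0.79 with the length offset (adjusted p = 0.0358). Atp5s came next (5.58 and 3.63 CPM, against 4.98 and 2.47 CPM; 0.30, adjusted p = 0.704). Cox6a1 (-0.36), Cox6c (-0.59) and Cox8a (-0.42) missed the test, with adjusted p-values of 0.501, 0.291 and 0.379. Muscle isoforms were close to absent, with Cox6a2 at no more than 0.653 CPM and Cox8b above 0 in 1 library, at 0.0353 CPM, while Cox8c, known from testis, reached 0.653 CPM.

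Of the subunit c genes, Atp5g1 was the 1 that fell in total RNA as well. It had 102 and 59.9 CPM at 96 h, against 268 and 230 CPM at 0 h (-1.62, standard error 0.33, adjusted p = 0.0178 in edgeR, and 0.0631 without the 96 h library of run 2). In run 1 it stood at 268, 232, 221, 163, 158, 88.3 and 102 CPM from 0 to 96 h, and in run 3 at 189, 170, 166, 111 and 83.5 CPM from 0 to 48 h, lower at nearly every step in both runs. Atp5g3 had 368 and 242 CPM at 96 h, against 536 and 359 CPM at 0 h (-0.56, adjusted p = 0.263), and Atp5g2 had 13.03 and 5.90 CPM, against 10.0 and 10.1 CPM (-0.10, adjusted p = 0.890). The 3 genes encode the same mature protein with different import sequences. Over all members, the median log2 ratio to 0 h in run 1 of total RNA was -0.28, -0.43, -0.52, -0.49, -0.72 and -0.37 at 6, 24, 36, 48, 72 and 96 h. In run 3 it was -0.27, -0.26, -0.49 and -0.51 at 12, 24, 36 and 48 h. All ratios of a run share 1 library at 0 h, and that of run 1 had a balance of short against long genes of 0.62. Summed TPM of the members in run 1 were 22242 at 0 h and between 20135 (72 h) and 21594 (96 h) later. In run 2 they were 21941 at 0 h and 18282 at 96 h. In run 3 they were 28446 at 0 h and 25013 at 48 h.

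At 96 h, most members had a higher CPM in the library titled XEN than in the library titled ECT. The sort gate recorded for each library is the reverse of the one given in the protocol, so the markers were read first. Pdgfra, a surface marker of XEN cells, had 752 CPM in the XEN library and 202 CPM in the ECT library, Cd24a 21.0 and 638 CPM, Gata6 543 and 129 CPM, and Pax6 0.273 and 12.9 CPM, all on the side of the titles. Acta2, a marker of smooth muscle and fibroblasts, had 1.91 CPM in XEN and 202 CPM in ECT, and all 6 fibroblast genes were lower in XEN, and their part in the results below was not tested. There is 1 library of each kind and therefore no test, and the study's sample table marks both as left out.

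Of 79 members, 25 were more than 1.5-fold higher and 1 lower in XEN than in ECT, against 13.7% and 23.1% of 15088 genes. The median log2 ratio was 0.46, against -0.02 over all genes, and 75 members lay above 0. The 25 were 11 of 36 in complex I, 1 of 4 in II, 4 of 8 in III, 3 of 14 in IV and 6 of 17 in V. The ratio was highest for Atp5e, with 108 CPM in XEN and 56.3 CPM in ECT (0.93), Cox6a1, with 285 and 150 CPM (0.92), and Uqcrq, with 106 and 57.2 CPM (0.88). Atp5b had 2020 CPM in XEN and 1282 CPM in ECT (0.65), and Atp5g1, which fell over the whole course, had 88.1 and 56.9 CPM (0.62). The lowest among members with a mean count of at least 50 were Cox6b2 (9.84 and 10.4 CPM, -0.07), Ndufa7, an accessory subunit of complex I (72.2 and 73.9 CPM, -0.03), and Cox7c (18.5 and 18.8 CPM, -0.02). The member past 1.5-fold in the other direction was Cox7a1, named after its value was seen, with 14 counts in XEN and 63 in ECT (0.547 and 1.57 CPM, -0.73). The size of the ratio depends on scaling: with plain library sizes 3 members were higher and 1 lower, with medians of 0.18 for members and -0.27 for all genes. No member passed 2-fold. Summed TPM of the members were 20089 in XEN and 17746 in ECT. Single members lay on either side in TPM, such as Atp5b (1634 in XEN and 1330 in ECT) and Cox4i1 (712 and 745). The balance of short against long genes is not given for these libraries, and its part was not tested.

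**Figure D5:**
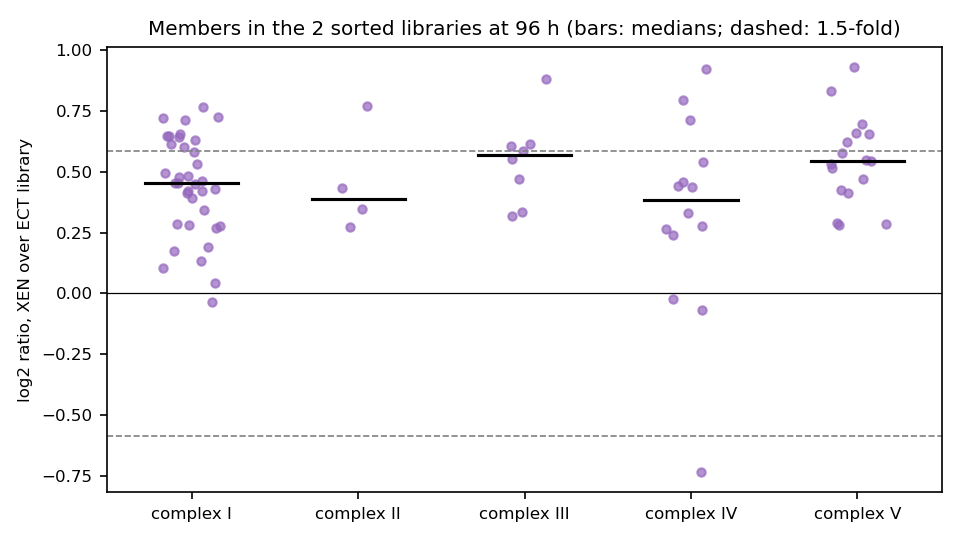
Log2 ratio of XEN over ECT CPM for each member (points) by complex I to V, with a bar at the median of each complex and dashed lines at 1.5-fold up and down, 1 library each. Medians were 0.45, 0.39, 0.57, 0.38 and 0.55, and 75 of 79 points lie above 0.

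In cytoplasmic RNA at 96 h, members with and without the promoter letters both lay below 0, and the difference between them was not tested. The median log2 fold change was -0.61 for the 15 tested members with the NRF1 letters and -0.66 for the 37 without, and 9 and 22 of them fell. It was -0.74 for the 12 with the ETS letters and -0.60 for the 40 without (6 and 25 fell), -0.69 for the 7 with the YY1 letters and -0.61 for the 45 without (4 and 27 fell), and -0.38 for the 9 with the SP1 letters and -0.66 for the 43 without (5 and 26 fell). Among the factors themselves, Gabpa, the DNA-binding subunit of GABP, fell, with 122, 134 and 132 CPM at 96 h, against 264, 270 and 275 CPM at 0 h (-1.11, adjusted p = 1.01e-09 in edgeR). Nrf1 fell by 0.18 (adjusted p = 0.0311), and Yy1 did not pass (0.16, adjusted p = 0.104).

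Genes that serve the same machinery without being members gave a mixed picture, beside the 34.4% of all genes that fell and 33.3% that rose in cytoplasmic RNA. Of 6 tested carriers and further subunits, 2 fell in cytoplasmic RNA at 96 h and 0 rose, with a median of -0.52. They were Cyct, the testis form of cytochrome c (-2.34, adjusted p = 0.000646 in edgeR), and Ndufa4l2, a relative of Ndufa4 known from low oxygen (-2.70, adjusted p = 0.0138). Of 36 assembly factors, which help to build the complexes and are not part of them, 13 fell, a share near that of all genes, and 5 rose (median -0.28). Of 10 regulators of mitochondrial genes, 6 fell and 0 rose (median -0.36), and Tfam, which packages mitochondrial DNA, did not pass (0.02, adjusted p = 0.830). In nuclear RNA 0 of 6 carriers fell, 7 of 36 assembly factors fell and 2 rose, and 3 of 10 regulators fell, where 27.8% of all genes fell and 27.7% rose. The 13 mRNAs made from mitochondrial DNA were read in total RNA alone, where none passed the test in edgeR and their median at 96 h was -0.54, close to the -0.48 of the nuclear-encoded members.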

How the data were processed

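Values are the authors' expected counts per gene from RSEM, not scaled, and the TPM deposited beside them. For fractions and paired-end total RNA the submitters name Trimmomatic 0.38 for trimming, STAR 2.6.1a for alignment and RSEM 1.3.1 for counting, and for single-end and sorted libraries Bowtie2 2.2.6 and RSEM 1.2.28. Rounded counts, after TMM scaling, went into the quasi-likelihood fit of edgeR 4.0.16 (R 4.3.3, limma 3.58.1), for genes with a mean count above 10, at a Benjamini and Hochberg adjusted p under 0.05 over all genes tested. The 24 libraries of a fraction shared 1 fit with a group per time, all 48 shared the fit between fractions, and total RNA used 2 single-end libraries at 96 h and 2 at 0 h. CPM are TMM-scaled. Sorted libraries were compared by the ratio of CPM plus 1. Identifiers were matched to symbols, gene types and places in the GENCODE mouse annotation for 39762 of 39815 (fractions) and 45143 of 45191 (total RNA). RefSeq served for the promoter windows. The tests were tested on simulated counts with known changes.

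Members with values per library are, per complex, the lowest and highest cytoplasmic change at 96 h, the 3 lowest and 3 highest in total RNA, between fractions and between sorted libraries (mean count of at least 50), the isoform sets of complexes IV and V and the 5 highest TPM at 0 h. Others are named for their role or their call. The values of 1 member are not reported here, though it is kept in every count and median. Members and lists were chosen with earlier results of these data known. For the fractions the labels tie a number to 1 differentiation run, and for single-end total RNA they give only a replicate number. A fit with this number as a block was made for each test. Deviations of the same run at 96 h and 0 h correlated at 0.13, 0.01 and 0.08 in cytoplasmic RNA and -0.01, 0.13 and 0.19 in nuclear RNA. Alternatives were DESeq2 1.42.0, its size factors, no filter, at least 10 counts in every library, the block, an offset on effective length and each library or run left out. The block together with the length offset, and the TPM scale (pseudocount 0.5), were added after the data were seen. For protein and total RNA the study's methods name 3 batches, which the labels do not assign to libraries. They are the first replicate, the second, and samples made in place of failed ones of the first. Plots and summaries used python 3.11.15, pandas 2.3.3, numpy 2.4.6 and matplotlib 3.10.9.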

Additional observations from a re-analysis of the deposited data

How the results depend on the processing

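Of 97 comparisons of a count of calls with its value under an alternative, 75 stayed within 1.5 times and 22 did not. The shares of all genes called under the alternatives are not given here. In cytoplasmic RNA at 96 h the count of 38 ranged from 31 to 45 under other tests, filters, the block and the length offset, and from 26 to 44 with 1 library left out. The test of the difference between fractions called 0 members under every alternative. In nuclear RNA at 96 h the 15 calls became 23 with no filter and 26 with the run as a block, and 10 to 18 with 1 library left out. The calls before 96 h, 113 in cytoplasmic RNA, ranged from 44 to 158 with a run left out, and the 50 in nuclear RNA from 18 to 72, with 76 under the block together with the length offset. Any change in cytoplasmic RNA, 33 calls, became 54 with no filter and 20 to 44 with a run left out. Nuclear against cytoplasmic RNA, 15 calls, became 31 with no filter, 26 with the length offset with or without the block, and 10 to 37 with a run of 1 fraction left out. In total RNA the 5 calls became 9 with DESeq2, 37 with the replicate number as a block (2 pairs that share only a number, deviations correlated at 0.42), 8 with the length offset, 14 with both, and 1 to 6 with 1 library left out. A lone library was then assumed to vary like the other group. Between the sorted libraries the 26 members past 1.5-fold became 0 past 2-fold and 4 with plain library size.

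Of the members called in the 4 comparisons, 2 turned direction under an alternative, both in cytoplasmic RNA with the length offset, without and with the run as a block, Atp5g2 (0.0317 and 0.0299) and Uqcrh (0.0512 and 0.0530). The others that turned had not been called. With the length offset, without and with the run as a block, total RNA gave 0.24 and 0.22 for Atp5g2, 0.23 and 0.23 for Cox4i1, 0.10 and 0.0901 for Cox6a1 and 0.0516 and 0.0493 for Cox8a. Cytoplasmic RNA gave 0.0322 and 0.0571 for Cox5b and 0.10 and 0.10 for Uqcrfs1, and -0.00242 for Ndufa11 with the offset alone. Uqcrfs1 was also 0.0114 with DESeq2, 0.0111 with its size factors and 0.00408 with at least 10 counts in every library. With 1 library left out, total RNA ranged from -0.72 to 0.38 for Atp5g2, -0.14 to 0.89 for Atp5s, -0.68 to 0.23 for Cox4i1, -0.83 to 0.0493 for Cox6a1, -0.83 to 0.36 for Cox7a2l and -0.16 to 0.74 for Ndufa2. Cytoplasmic RNA ranged from -0.56 to 0.0755 for Cox5b, -0.13 to 0.18 for Ndufa11 and -0.00673 to 0.0451 for Sdhc, and nuclear against cytoplasmic RNA from -0.0276 to 1.13 for Atp5k and -0.50 to 0.0089 for Uqcrb. The cause was not tested. The members' median in total RNA was -0.77 to -0.18 with 1 library left out. Depth limits the isoforms under 1 CPM, for which counting error is large.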

Other observations

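Other mitochondrial gene groups were counted at 96 h in the same way. Of 67 tested genes of the mitochondrial ribosome, which translates the subunits encoded by mitochondrial DNA, 35 fell and 2 rose in cytoplasmic RNA (median log2 fold change -0.38), 16 fell and 6 rose in nuclear RNA (-0.10), and 11 of 77 fell and 0 rose in total RNA (-0.57), all in edgeR. Over all genes 34.4% fell and 33.3% rose in cytoplasmic RNA, 27.8% and 27.7% in nuclear RNA, and 13.3% and 16.4% in total RNA, so only the count of falls in cytoplasmic RNA lay well above the share of all genes. Of 12 genes of the citric acid cycle and pyruvate dehydrogenase, 7 fell and 3 rose in cytoplasmic RNA. Pdhb, the beta subunit of pyruvate dehydrogenase, fell by 1.197 on the log2 scale (adjusted p = 1.75e-12), and Dlst, a subunit of 2-oxoglutarate dehydrogenase, rose by 0.48 (adjusted p = 4.33e-08). In total RNA 1 of 16 genes of this group fell and 0 rose. Assembly factors (1 fell and 1 rose of 46), regulators (1 fell of 10) and carriers (1 fell of 6) mostly missed the test there. Gabpa fell by 0.96 in total RNA (adjusted p = 0.0259) and Cyct gave -4.37 (adjusted p = 0.0139).

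Between the fractions, 12 of 67 genes of the mitochondrial ribosome were higher and 6 lower in nuclear than in cytoplasmic RNA, as were 6 and 3 of 36 assembly factors, 2 and 0 of 6 carriers, 2 and 1 of 10 regulators, and 0 and 3 of 12 genes of the citric acid cycle, where 13.9% of all genes were higher and 17.2% lower.

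Between the sorted libraries, 20 of 77 genes of the mitochondrial ribosome (median log2 ratio 0.46), 5 of 16 of the citric acid cycle (0.41), 4 of 46 assembly factors (0.24), 2 of 13 mRNAs of mitochondrial DNA (0.27), 1 of 5 carriers (0.55) and 0 of 11 regulators (0.06) were more than 1.5-fold higher in the library titled XEN than in that titled ECT, with 1 library of each, where 13.7% of all genes were. Of 8 measured naive pluripotency genes, 5 were more than 1.5-fold higher and 2 more than 1.5-fold lower in XEN than in ECT. Among them, Pou5f1 stood at 32.7 CPM in XEN and 2.72 CPM in ECT. The 5 measured genes of 2-cell-like cells were all lower in XEN.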
